A study of Mus musculus with 15 samples.

Results

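The response of the carotid artery to ligation was compared between Has3-deficient and wildtype mice, gene by gene. The quantity described is the interaction: the change with ligation in Has3-deficient arteries minus the change with ligation in wildtype arteries, in log2 units. A value of 1 means that the change was 2-fold higher in the Has3-deficient arteries. All 15 arrays of the series enter it, and it was computed for all 22180 genes with a probe set that carries exactly 1 gene symbol.

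Wildtype arteries gave 4 arrays without and 4 with ligation, and Has3-deficient arteries gave 4 without and 3 with it (titled 3, 5 and 6), which makes 4 groups. All mice were female, on the C57Bl/6J strain and 21 to 22 weeks old, and the arteries were taken 5 days after the left common carotid had been tied off. Arteries that had not been tied served as the controls, and labelled cDNA was made from 100 ng of total RNA. The labels name no other allele or agent, do not say how the Has3 gene was disrupted or whether the loss is limited to a cell type, and do not tie an array to an animal. P-values therefore measure the spread between these samples, which may be partly technical. The arrays hold RNA of whole vessels, so fewer cells of a type and less RNA per cell cannot be told apart.

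Has3 is 1 of 3 hyaluronan synthases, enzymes of the plasma membrane that extrude the long sugar polymer hyaluronan into the space around the cell. In an injured or ligated artery, smooth muscle cells lose contractile proteins, divide, migrate and lay down matrix rich in hyaluronan, and leukocytes enter the wall. The thickened inner layer that forms this way is called neointima. The series was made to see how the loss of Has3 bears on that process, and the interaction is the comparison in which a changed response to ligation would appear.

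In the deposited table every probe set has been centred on its median across arrays, so differences between arrays are kept and levels are not. For that reason the arterial identity of the samples could be followed only through differences, and whether a gene was above background cannot be read. Has3 did not pass between genotypes: Has3-deficient minus wildtype was 0.09 ± 0.14 without ligation (log2 units ± standard error throughout, adjusted p = 0.853 in limma) and -0.20 ± 0.16 with it. Its probe set does not check the genotype labels, and "Has3-deficient" follows them. Genes of neurons and of fat differed widely between arrays of 1 group, and their values are given below.

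No gene passed for the interaction. Of 22180 genes, 0 (0%) had a Benjamini-Hochberg adjusted p under 0.05 in limma, and the lowest adjusted p, 0.44, was shared by 122 genes. Without adjustment 1802 genes had a p under 0.05. Of these, 971 were positive (4.38% of all genes) and 831 were negative (3.75%). Positive and negative are used here only for the sign of an estimate, and no gene is called changed by genotype. The interaction is built from the same arrays as the ligation contrast of each genotype, so these are set side by side and not counted as separate evidence.

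The fit gave intervals within 1 log2 unit of 0 for most genes. How many of these genes were above background cannot be read, so a narrow interval need not bound a difference in the RNA. The 95% confidence interval of the interaction lay within 0.5 log2 units on either side of 0 for 14484 genes (65.3%) and within 1 log2 unit for 20894 genes (94.2%). The median interval reached 0.287 log2 units to each side of its estimate. Among genes whose mean response to ligation passed and exceeded 1 log2 unit, fewer of those that fell were bounded this way. The interval lay within 1 log2 unit for 95 of 238 genes that fell and for 640 of 780 that rose. The estimates themselves were narrow, with a 5th percentile of -0.33 and a 95th of 0.34. A total of 23 genes had an estimate above 1 and 31 an estimate below -1.

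Among the genes with large responses to ligation, the medians of the genotypes lay close for genes that rose and farther apart for genes that fell. Genes were chosen by the mean response of both genotypes (adjusted p under 0.05 and over 1 log2 unit): 780 genes rose (3.52%) and 238 fell (1.07%). For the 780 genes the median change was 1.61 log2 units (wildtype) and 1.57 (Has3-deficient), and the median interaction was -0.05, beside -0.02 over all genes. That median turned with single arrays and with scaling: it was 0.024 without wildtype ligated array 1, 0.023 without Has3-deficient ligated array 6, 0.007 without Has3-deficient non-ligated array 4, -0.109 without Has3-deficient ligated array 3, -0.101 without wildtype ligated array 4 and 0.016 with quantile normalization. Of these 780 genes, 16 had a positive and 27 a negative interaction with an unadjusted p under 0.05, beside 4.38% and 3.75% of all genes. For the 238 genes the median change was -1.36 (wildtype) and -0.98 (Has3-deficient), and the median interaction was 0.39. Of these 238 genes, 43 had a positive and 0 a negative interaction with an unadjusted p under 0.05, beside the same 4.38% and 3.75%. None passed after adjustment.

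The mean over the 238 genes lay between 0.46 and 0.645 in the wildtype non-ligated arrays and between 0.43 and 0.536 in the Has3-deficient non-ligated ones. In the wildtype ligated arrays 1 to 4 it was -1.07, -0.90, -0.90 and -0.54. In the Has3-deficient ligated arrays 3, 5 and 6 it was -0.78, -0.42 and -0.42. Arrays 5 and 6 lay above every wildtype ligated array, and array 3 lay among them, so the groups overlapped. The mean of the fat list, a marker of tissue around the artery, was -1.295, -1.135, -0.506 and 0.049 in the same wildtype ligated arrays and -0.392, 0.366 and 0.31 in the Has3-deficient ones, and with the neuron and fat list means as covariates the median interaction of the 238 genes was 0.324. The median interaction of these genes was 0.514 without Has3-deficient ligated array 3 and 0.306 without wildtype ligated array 1, the ends of the range over left-out arrays. With quantile normalization it was 0.235.

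**Figure D1:**
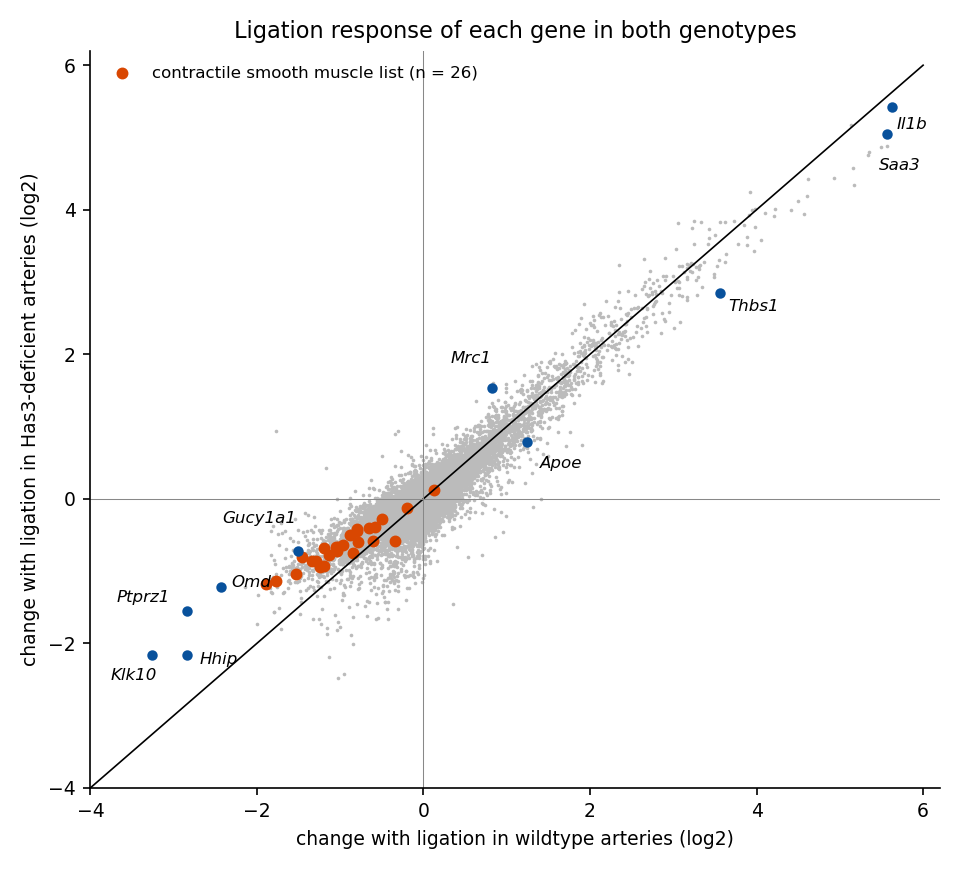
Change with ligation in wildtype arteries (x axis, log2) against that in Has3-deficient arteries (y axis, log2), 1 grey point per gene for 22180 genes, with the line of equal change, the 26 contractile smooth muscle genes in orange and named genes in blue. The 238 genes with a mean fall over 1 had a median interaction of 0.39. For the 780 genes with a mean rise over 1 it was -0.05. Gucy1a1 (-1.51 and -0.73), named for its low interaction p, lies above the line. Among the genes that rose most, the estimate of Il1b (5.63 and 5.41) lies near the line, with a wide interval. Most of the others, such as Saa3, lie farther below it, with intervals of the interaction that include 0.

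Most contractile genes of smooth muscle had a smaller estimated fall in Has3-deficient arteries, and none passed for the interaction. The list holds 26 measured genes of the actin and myosin machinery and its regulators. In each genotype 23 of them fell with ligation, beside 14.6% (wildtype) and 8.08% (Has3-deficient) of all genes. Median changes were -0.996 and -0.67. The interaction was positive for 24 of 26 genes (45.8% of all genes) with a median of 0.34, and 9 had an unadjusted p under 0.05 (4.38% of all genes). Median genotype differences were -0.03 in non-ligated and 0.27 in ligated arteries.

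Among the structural members, Myh11, the smooth muscle myosin heavy chain, fell by 1.29 log2 units in wildtype and by 0.87 in Has3-deficient arteries (interaction 0.42 ± 0.24). Acta2, smooth muscle actin, fell by 0.50 and by 0.28 (0.21 ± 0.10). Tagln, an actin-binding protein, fell by 0.97 and by 0.63 (0.34 ± 0.18). These fell with an adjusted p under 0.05 in each genotype, and their unadjusted interaction p-values were 0.095, 0.0513 and 0.0861.

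Cnn1, calponin, which damps the myosin motor, fell by 1.19 and by 0.68 (interaction 0.51 ± 0.21). The myosin light chain gene Myl9 fell by 0.89 and by 0.50 (0.38 ± 0.12). Cald1, caldesmon, another actin-linked regulator, fell by 0.80 and by 0.45 (0.35 ± 0.12). The tropomyosin gene Tpm2 fell by 1.33 and by 0.86 (0.47 ± 0.21). These 4 had unadjusted p-values under 0.05, and none passed after adjustment.

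The other 5 members with an unadjusted p under 0.05 have mixed roles. Synpo2, a synaptopodin that binds actin and filamin, fell by 1.89 and by 1.18 (interaction 0.71 ± 0.31). Pdlim3, an actinin-associated LIM protein, fell by 1.45 and by 0.80 (0.65 ± 0.23). Ppp1r14a, the inhibitor of myosin phosphatase known as CPI-17, fell by 1.78 and by 1.14 (0.64 ± 0.29). Kcnmb1, the subunit that tunes the large calcium-activated potassium channel, fell by 1.14 and by 0.77 (0.36 ± 0.13), and Cav1, caveolin, by 0.79 and by 0.41 (0.38 ± 0.17). Only Des, desmin (-0.25 ± 0.21), and Casq2, calsequestrin (-0.01 ± 0.17), had a negative interaction in the fit of all 15 arrays.

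The mean of the contractile list in each array shows where this came from. It was 0.186, 0.215, 0.402 and 0.5 in wildtype non-ligated arrays 1 to 4 and 0.451, 0.429, -0.019 and 0.294 in Has3-deficient non-ligated arrays 1 to 4. In wildtype ligated arrays it was -0.765, -0.708, -0.749 and -0.319, and in Has3-deficient ligated arrays 3, 5 and 6 it was -0.481, -0.301 and -0.299. Wildtype ligated array 4 stood apart from the other 3 of its group and lay among the Has3-deficient ligated arrays. The median interaction of the list was 0.463 without that array and 0.246 without Has3-deficient non-ligated array 3. With quantile normalization it was 0.186, with 21 of 26 genes positive.

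**Figure D2:**
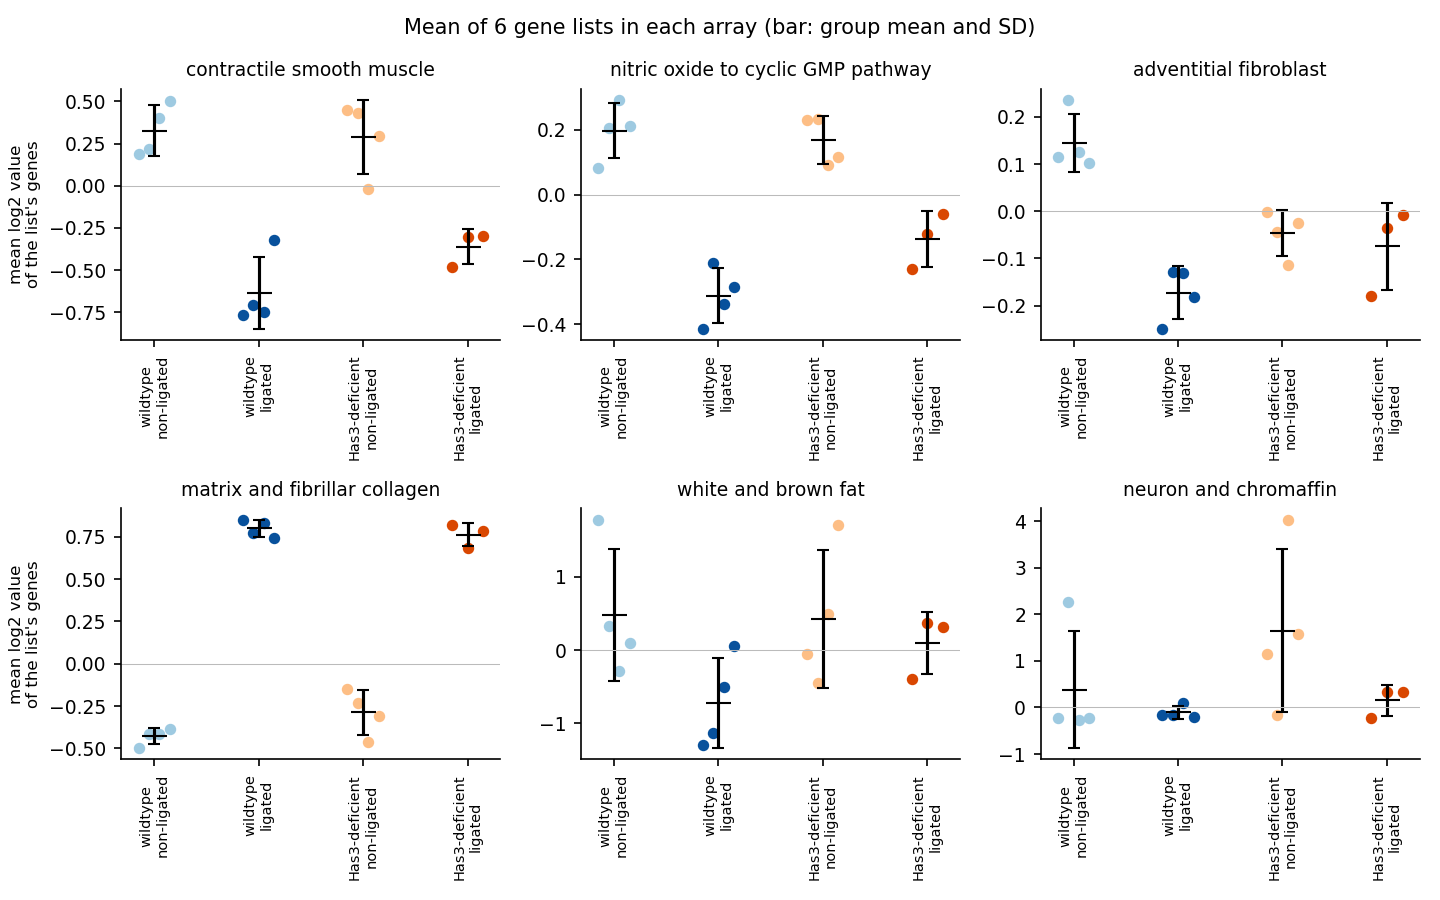
Mean log2 value of the genes of 6 lists in each of the 15 arrays, by group, relative to each gene's median over the arrays; points are arrays and black bars the group mean and SD. The contractile list lies at -0.765 to -0.319 in wildtype ligated arrays and at -0.481 to -0.299 in Has3-deficient ligated ones; the neuron and fat lists spread widely among non-ligated arrays.

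The CArG box, the binding element of serum response factor, is a known control element of contractile genes. It was searched by name, as CCWWWWWWGG with W for A or T, on both strands of the RefSeq promoters (GRCm38.p6). The window ran from 250 bases before to 50 bases after the annotated start. Boxes with a G or C among the inner bases, or outside the window, were not counted. This form was found for 3 of the 22 contractile genes with a promoter (13.6%) and for 488 of 27025 gene symbols (1.81%). The 3 were Myl9 (interaction 0.38 ± 0.12), Vcl, which encodes the adhesion protein vinculin (0.25 ± 0.12), and Srf, the serum response factor gene itself (0.07 ± 0.22). Their 250 bases before the start are shown because they carry the element; capitals mark it. They lie at chr2:156775214-156775463 on the plus strand (Myl9), chr14:20929148-20929397 on the plus strand (Vcl) and chr17:46556163-46556412 on the minus strand (Srf). A match is a description of the letters and not of a bound site.
Myl9: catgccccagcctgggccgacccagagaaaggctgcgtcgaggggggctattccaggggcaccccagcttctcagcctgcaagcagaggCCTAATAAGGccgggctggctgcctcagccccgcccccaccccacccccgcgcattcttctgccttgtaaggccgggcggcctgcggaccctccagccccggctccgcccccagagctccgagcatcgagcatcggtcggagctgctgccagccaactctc
Vcl: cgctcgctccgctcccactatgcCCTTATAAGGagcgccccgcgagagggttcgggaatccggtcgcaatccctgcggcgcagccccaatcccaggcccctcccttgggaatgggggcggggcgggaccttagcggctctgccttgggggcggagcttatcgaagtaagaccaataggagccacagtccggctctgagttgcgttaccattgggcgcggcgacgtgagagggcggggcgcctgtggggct
Srf: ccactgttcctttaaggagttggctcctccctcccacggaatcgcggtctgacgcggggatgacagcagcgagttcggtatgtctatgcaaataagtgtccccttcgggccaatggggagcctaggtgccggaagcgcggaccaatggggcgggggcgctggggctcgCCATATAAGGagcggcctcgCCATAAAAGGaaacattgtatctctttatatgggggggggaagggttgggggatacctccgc

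The 3 genes differed in their response. Myl9 lay at 0.14, 0.21, 0.18 and 0.31 in wildtype non-ligated arrays 1 to 4 and at -0.78, -0.75, -0.78 and -0.40 in wildtype ligated arrays 1 to 4. It lay at 0.26, 0.10, 0.00 and 0.15 in Has3-deficient non-ligated arrays and at -0.43, -0.32 and -0.37 in Has3-deficient ligated ones. The ligated groups overlapped only through wildtype array 4. Vcl fell by 0.65 and by 0.41, with an unadjusted p of 0.0624 for the interaction. Srf, with 2 boxes, did not pass for ligation in either genotype (-0.20 ± 0.15 and -0.13 ± 0.16).

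Nitric oxide relaxes smooth muscle by binding soluble guanylyl cyclase, which makes cyclic GMP and so activates a protein kinase. Among the 15 measured genes of this pathway, 9 fell with ligation in each genotype, beside 14.6% (wildtype) and 8.08% (Has3-deficient) of all genes. Their median changes were -0.90 (wildtype) and -0.67 (Has3-deficient). The interaction was positive for 10 of 15 (45.8% of all genes), with a median of 0.25 (0.121 with quantile normalization). An unadjusted p under 0.05 was found for 2 genes (4.38% of all genes). Those were the genes of the cyclase itself.

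Gucy1a1, the alpha subunit of the cyclase, was among the genes with the lowest p of all. It lay at 0.24, 0.21, 0.39 and 0.33 in wildtype non-ligated arrays 1 to 4 and at -1.38, -1.36, -1.27 and -0.87 in wildtype ligated arrays. In Has3-deficient non-ligated arrays 1 to 4 it lay at 0.03, 0.02, 0.09 and 0.00, and in Has3-deficient ligated arrays 3, 5 and 6 at -0.91, -0.56 and -0.60. The non-ligated groups did not overlap, with the wildtype arrays higher, and the ligated groups overlapped through wildtype array 4 and Has3-deficient array 3. Gucy1a1 fell by 1.51 ± 0.10 log2 units in wildtype (2.85-fold) and by 0.73 ± 0.11 in Has3-deficient arteries (1.66-fold). The interaction was 0.78 ± 0.15 (95% interval 0.45 to 1.11, unadjusted p = 0.000179, adjusted p = 0.44). It was 0.718 to 0.898 over left-out arrays and 0.509 with quantile normalization.

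The beta subunit followed the same order. Gucy1b1 lay at 0.11, 0.30, 0.46 and 0.64 in wildtype and at 0.26, 0.12, 0.00 and 0.30 in Has3-deficient non-ligated arrays. After ligation it lay at -1.52, -1.19, -1.44 and -0.80 in wildtype and at -1.24, -0.56 and -0.46 in Has3-deficient arteries. Both artery states overlapped between genotypes. It fell by 1.62 and by 0.92, with an interaction of 0.70 ± 0.27 (unadjusted p = 0.0212).

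Downstream of the cyclase the estimates were smaller. Prkg1, the cyclic GMP-dependent kinase, fell by 1.29 and by 0.88 (interaction 0.40 ± 0.26). Mrvi1, a target of that kinase at the calcium store, fell by 1.20 and by 0.79 (0.41 ± 0.20). The phosphodiesterase Pde5a, which breaks cyclic GMP down, fell by 0.90 and by 0.57 (0.33 ± 0.24). None of these had an unadjusted p under 0.05. On the side of supply, Nos3, the endothelial nitric oxide synthase, fell by 0.90 and by 0.99 (-0.09 ± 0.30), and Nos2, the inducible one, rose by 1.73 and 1.58 (-0.15 ± 0.34).

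None of the genes of hyaluronan turnover passed for the interaction. Of 32 measured genes, 21 were positive (45.8% of all genes) and 11 negative (54.2%), with a median of 0.04. An unadjusted p under 0.05 was found for 3 positive genes (4.38% of all genes) and 1 negative gene (3.75% of all genes). The median was 0.014 without wildtype non-ligated array 2 and 0.092 without Has3-deficient non-ligated array 4. The median changes with ligation were 0.18 in wildtype and 0.23 in Has3-deficient arteries. With ligation 13 of the 32 rose in wildtype and 9 in Has3-deficient arteries, beside 13.2% and 10.2% of all genes.

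The synthases come first. Has2 lay at -0.24, -0.37, 0.00 and -0.33 in wildtype and at -0.88, -0.93, -0.26 and -0.14 in Has3-deficient non-ligated arrays. With ligation the values were 0.94, 1.26, 0.70 and 1.17 in wildtype and 1.03, 0.61 and 0.99 in Has3-deficient arrays. It rose in each genotype, by 1.25 ± 0.18 (2.38-fold) and 1.43 ± 0.20 (2.69-fold), and the genotypes overlapped in both artery states. The interaction was 0.18 ± 0.27 with a 95% interval of -0.40 to 0.76, so a difference of 0.76 log2 units is within its bounds.

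Has1 rose in wildtype by 0.81 ± 0.21, while in Has3-deficient arteries the change of 0.51 ± 0.23 did not pass (adjusted p = 0.143). It lay at -0.50, -0.08, -0.25 and -0.48 in wildtype and at -0.19, 0.08, -0.33 and -0.13 in Has3-deficient non-ligated arrays. After ligation it lay at 0.02, 1.02, 0.00 and 0.87 in wildtype and at 0.24, 0.59 and 0.28 in Has3-deficient arrays. Wildtype ligated arrays 2 and 4 were high and arrays 1 and 3 low, and the Has3-deficient arrays lay between them. The interaction was -0.29 ± 0.31 (-0.95 to 0.37), so the pass in 1 genotype alone is no tested difference.

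Has3 itself did not pass for ligation in either genotype (0.13 ± 0.14 and -0.16 ± 0.16). It lay at 0.00, -0.08, -0.02 and 0.22 in wildtype and at 0.21, 0.41, -0.07 and -0.08 in Has3-deficient non-ligated arrays. In ligated vessels it was found at -0.08, 0.13, 0.58 and 0.00 in wildtype and at -0.23, -0.01 and 0.10 in Has3-deficient arrays. The groups overlapped throughout, and the interaction was -0.29 ± 0.21 (-0.74 to 0.17).

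Among the genes that supply the sugar building blocks, Gfpt2, an enzyme at the entry of hexosamine synthesis, had the largest estimate of the list. It lay between 0.00 and 0.55 in wildtype non-ligated arrays and at -0.89, -0.70, -0.46 and 0.02 in Has3-deficient non-ligated arrays 1 to 4. After ligation it lay between -0.36 and 0.02 and between -0.25 and 0.09. The interaction was 0.79 ± 0.26 (unadjusted p = 0.00891) and rested on the low non-ligated Has3-deficient arrays, although neither ligation change passed. Ugdh, which makes the glucuronic acid donor, rose by 0.49 and 0.61 (interaction 0.12 ± 0.15).

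Of the proteins that bind hyaluronan, the inter-alpha-inhibitor heavy chains are attached to it covalently and stabilise the coat around cells. The heavy chain gene Itih2 lay at 0.49, 0.76, 0.66 and 0.70 in wildtype and at 0.26, 0.37, 0.00 and 0.06 in Has3-deficient non-ligated arrays, with no overlap. It fell by 0.83 in wildtype arteries, while the change of -0.31 in Has3-deficient arteries did not pass (adjusted p = 0.0597). The interaction was 0.52 ± 0.14 (unadjusted p = 0.00297), and that of Itih4, another heavy chain, was 0.58 ± 0.27. Hapln3, a link protein that ties hyaluronan to proteoglycans, had an interaction of -0.32 ± 0.12.

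Estimates of the receptors, the heavy chain transferase and the proteoglycan named here ran from -0.02 to 0.78. Other receptors of the list are not given. Cd44, the main receptor on cells of the artery and on leukocytes, rose by 2.53 and 2.63 (interaction 0.11 ± 0.19). Tnfaip6, which moves heavy chains onto hyaluronan, rose by 3.02 and 3.00 (-0.02 ± 0.31), and the motility receptor Hmmr by 1.41 and 1.43 (0.02 ± 0.23). Vcan, the proteoglycan versican, rose by 0.70 and 0.86 (0.16 ± 0.20). Lyve1, a receptor of lymphatic vessels and some macrophages, fell by 0.73 in wildtype and had a change of 0.05 in Has3-deficient arteries (0.78 ± 0.37, unadjusted p = 0.0567).

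The genes of adventitial fibroblasts, the connective tissue cells of the outer wall, were nearly all positive. Of 15 genes, 14 had a positive interaction (45.8% of all genes), with a median of 0.29. An unadjusted p under 0.05 was found for 7 (4.38% of all genes). The median genotype difference was -0.23 in non-ligated and 0.11 in ligated arteries. Median changes with ligation were -0.32 (wildtype) and 0.05 (Has3-deficient). The list mean was 0.115, 0.235, 0.125 and 0.103 in wildtype and -0.001, -0.044, -0.113 and -0.025 in Has3-deficient non-ligated arrays, without overlap. It was -0.249, -0.128, -0.13 and -0.182 in wildtype and -0.179, -0.036 and -0.007 in Has3-deficient ligated arrays, with overlap through array 3.

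Dpt, dermatopontin, a small matrix protein, lay at 0.20, 0.41, 0.21 and 0.23 in wildtype and at -0.35, -0.25, 0.00 and -0.15 in Has3-deficient non-ligated arrays. It fell by 0.32 in wildtype and had a change of 0.17 in Has3-deficient arteries that did not pass (interaction 0.50 ± 0.13, unadjusted p = 0.0015). Mfap5, a microfibril protein (0.43 ± 0.13), the surface marker Cd34 (0.41 ± 0.14) and Col14a1, a fibril-associated collagen (0.35 ± 0.12), had similar estimates. Lum, the collagen-binding lumican, rose in each genotype, by 0.69 and 1.08 (0.39 ± 0.16), and Pi16, a marker of adventitial fibroblasts, fell in each, by 0.86 and 0.56 (0.30 ± 0.11). Has1 was the 1 member with a negative estimate.

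Matrix genes leaned the other way. Of 20 genes of fibrillar collagen and its partners, 17 rose with ligation in each genotype, beside 13.2% (wildtype) and 10.2% (Has3-deficient) of all genes. The interaction was negative for 15 (54.2% of all genes) with a median of -0.12, and 3 had an unadjusted p under 0.05 (3.75% of all genes). The median was -0.049 without Has3-deficient non-ligated array 1, -0.074 without array 2 of that group and -0.2 without Has3-deficient ligated array 3, so it depended on single arrays.

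Thbs1, thrombospondin, a matrix protein of injured vessels, rose by 3.56 and 2.85 (interaction -0.71 ± 0.32). Col1a1, a chain of the main fibrillar collagen, rose by 1.55 and 1.13 (-0.41 ± 0.15), and Col5a3, a chain of a collagen that regulates fibril width, by 1.60 and 1.12 (-0.47 ± 0.18). Col1a1 was at -0.75, -0.64, -0.66 and -0.44 in wildtype and at 0.00, -0.01, -0.50 and -0.28 in Has3-deficient non-ligated arrays, and at 0.84 to 1.05 in wildtype and 0.90 to 1.01 in Has3-deficient ligated arrays. Tnc, tenascin C, rose by 2.90 and 2.46 (-0.44 ± 0.22).

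Most macrophage genes rose in each genotype. Of 28 genes, 26 rose in wildtype and 25 in Has3-deficient arteries, beside 13.2% and 10.2% of all genes, with median changes of 2.14 and 2.44. The interaction was positive for 17 (45.8% of all genes) with a median of 0.07. An unadjusted p under 0.05 was found for 2 positive genes (4.38% of all genes) and 1 negative gene (3.75% of all genes), and none passed. The 2 positive ones were Mrc1, the mannose receptor, and Folr2, a folate receptor, both markers of tissue-resident macrophages, and the negative one was Marco, a scavenger receptor (-0.26 ± 0.10).

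Mrc1 lay at -0.16, 0.00, -0.41 and -0.60 in wildtype and at -1.33, -1.23, -0.91 and -0.47 in Has3-deficient non-ligated arrays. It lay at 0.35 to 0.73 in wildtype and 0.39 to 0.63 in Has3-deficient ligated arrays. It rose by 0.82 and 1.53 (interaction 0.71 ± 0.25), and Folr2 rose by 0.63 and 1.35 (0.73 ± 0.29). The genotypes differed more before than after ligation, with Has3-deficient non-ligated array 4 of Mrc1 among the wildtype values. Retnla, a secreted protein of fat and of macrophages, had an interaction of 1.60 ± 0.54, with wildtype non-ligated values of 1.53, 0.37, 0.12 and 0.70 and Has3-deficient ones of -1.53, -0.28, -0.33 and 0.06.

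**Figure D3:**
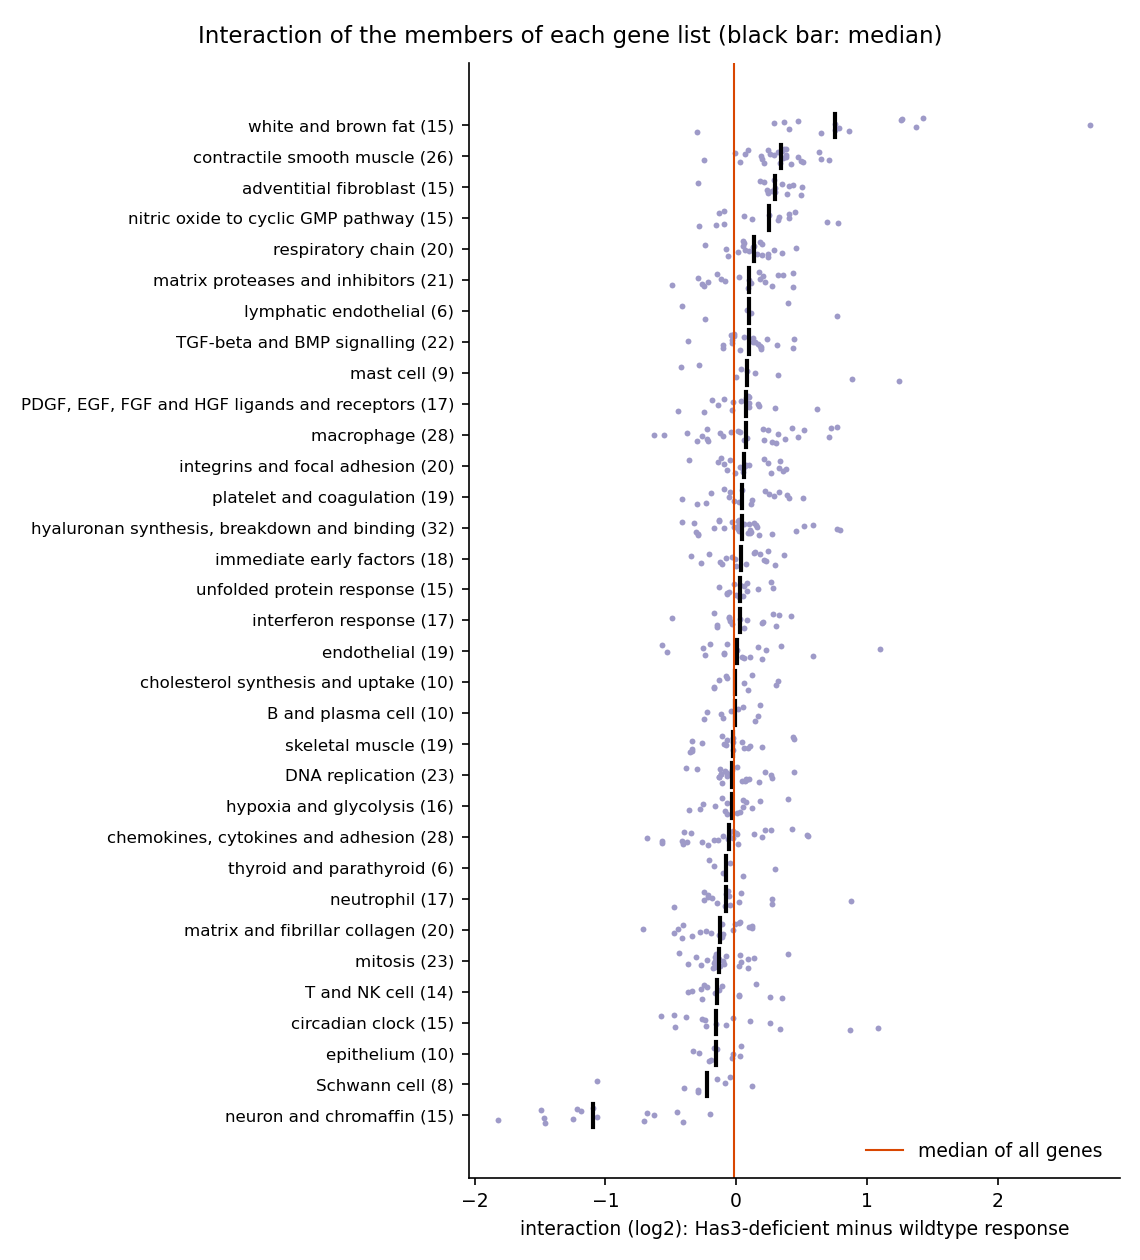
Interaction (x axis, log2) of each member of 33 gene lists, 1 point per gene, with the number of measured genes in parentheses, the list median as a black bar and the median of all genes (-0.02) as an orange line. The contractile, adventitial, nitric oxide and fat lists lie to the right and the neuron list to the left; the fat and neuron lists have no gene with an unadjusted p under 0.05.

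The interactions of the largest inflammatory responses had wide errors. Il1b, the cytokine interleukin 1 beta, lay at -1.45, -2.18, -1.45 and -3.21 in wildtype and at -3.48, -3.36, -0.99 and 0.00 in Has3-deficient non-ligated arrays. After ligation it lay at 3.81, 3.74, 3.46 and 3.21 in wildtype and at 3.72, 3.45 and 3.20 in Has3-deficient arrays. The ligated arrays spanned the same range, while Has3-deficient non-ligated arrays 3 and 4 were far above arrays 1 and 2. The interaction was -0.21 ± 0.96, with a 95% interval of -2.27 to 1.84, and its sign turned with single arrays.

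Saa3, an acute-phase protein, had a narrower interval. It lay at -1.41, -1.18, -1.34 and -1.31 in wildtype and at -1.34, -1.38, -0.58 and 0.00 in Has3-deficient non-ligated arrays, and after ligation at 4.07, 4.81, 4.28 and 3.89 and at 4.30, 4.50 and 3.87. It rose by 5.57 (47.6-fold) and 5.05 (33.1-fold), with an interaction of -0.52 ± 0.40 (-1.39 to 0.34). The chemokine Ccl3 (-0.68 ± 0.67), the lectin receptors Clec4d (-0.62 ± 0.49) and Clec4e (-0.55 ± 0.46), the macrophage enzyme Acod1 (-0.57 ± 0.65) and the chemokine Cxcl3 (-0.57 ± 0.43) rose by 35.6-fold to 47.5-fold in wildtype and by 24.0-fold to 29.6-fold in Has3-deficient arteries. The protease inhibitor Stfa2l1 had an interaction of 0.03 ± 0.74. All these intervals included 0. Without the 5 non-ligated arrays high in neuron or fat genes, the estimates of Saa3 (0.019), Clec4d (0.003), Acod1 (0.155) and Cxcl3 (0.007) turned positive. Has3-deficient non-ligated arrays 3 and 4, which were high in Saa3 and Il1b, were also the highest of their group in the neuron and the fat list, at 4.029 and 1.713.

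The genes that fell most gave larger and mostly positive estimates. Klk10, a kallikrein-related peptidase of the endothelial list, lay at 0.99, 0.73, 1.94 and 1.16 in wildtype and at 1.29, 1.17, 0.39 and 0.00 in Has3-deficient non-ligated arrays. Ligated arrays had values of -2.08, -2.60, -2.09 and -1.46 in wildtype and -1.96, -1.23 and -1.16 in Has3-deficient arrays. It fell by 3.26 (9.6-fold) and by 2.16 (4.48-fold), and the genotypes overlapped in both states. The interaction was 1.10 ± 0.49 (unadjusted p = 0.0425).

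Hhip, which encodes a decoy receptor for hedgehog proteins, lay at 0.00, 1.26, 0.54 and 0.97 in wildtype and at 1.22, 0.94, 0.33 and 0.29 in Has3-deficient non-ligated arrays. After ligation it lay at -2.71, -1.82, -2.35 and -1.70 in wildtype and at -2.22, -1.10 and -1.08 in Has3-deficient arrays. It fell by 2.84 and by 2.16, with an interaction of 0.67 ± 0.49. Has3-deficient ligated arrays 5 and 6 lay above every wildtype ligated array for both genes, and array 3 did not.

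The other members of this group included 3 further genes with an unadjusted p under 0.05. Omd, osteomodulin, a matrix proteoglycan, lay at 0.66, 1.13, 0.69 and 0.53 in wildtype and at 0.04, 0.00, 0.00 and 0.26 in Has3-deficient non-ligated arrays, with no overlap. It lay at -2.04, -1.29, -1.90 and -1.48 and at -1.68, -0.88 and -0.89 after ligation, and fell by 2.43 and by 1.22 (interaction 1.20 ± 0.29, unadjusted p = 0.00107). Ptprz1, a receptor tyrosine phosphatase, fell by 2.84 and by 1.55 (1.29 ± 0.43), and the complement gene C7 by 2.15 and by 1.22 (0.93 ± 0.37). The transporter genes Abca8a (0.26 ± 0.26) and Abca8b (0.22 ± 0.31) and the methyltransferase gene Inmt (-0.09 ± 0.56) had smaller estimates, whose signs turned under other settings.

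**Figure D4:**
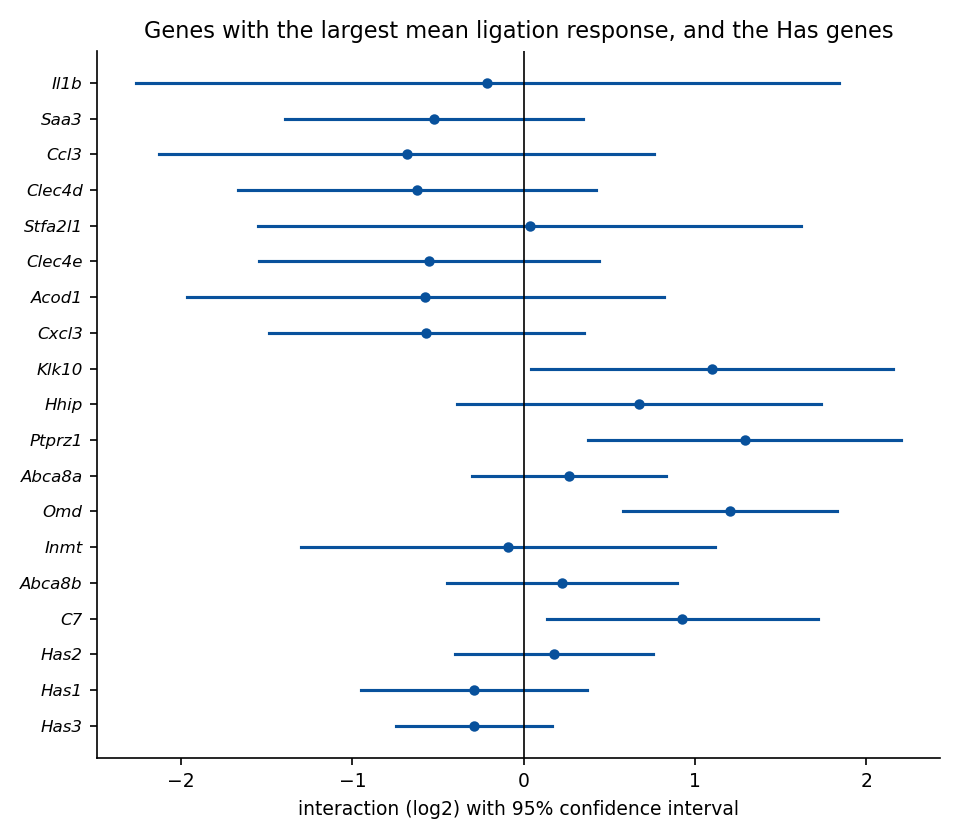
Interaction (x axis, log2; point) with its 95% confidence interval (line) for the 8 genes that rose most and the 8 that fell most with ligation on average, and for Has1, Has2 and Has3. Intervals of the 8 risen genes all include 0; Klk10, Ptprz1, Omd and C7 have intervals above 0 before adjustment.

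The interaction equals the genotype difference in ligated minus that in non-ligated arteries, and genes with a low p were chosen on that quantity, so the signs of its parts are no separate result. Of the 50 genes with the lowest p, 38 were positive. For each of the genotype comparisons alone, 0 genes passed in ligated arteries (0%), and 17 lower (0.0766%) and 2 higher genes (0.00902%) passed in non-ligated ones.

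Besides Gucy1a1, 9 positive genes were named by lowest p. BC065397, known by its clone name, lay at 0.34, 0.16, 0.13 and 0.13 and then at -0.42, -0.59, -0.50 and -0.34 in wildtype, and at 0.07, 0.10, 0.06 and 0.00 and then at -0.02, -0.06 and -0.15 in Has3-deficient non-ligated and ligated arrays. The genotypes did not overlap in either state. It fell by 0.65 in wildtype, and the change of -0.14 in Has3-deficient arteries did not pass (interaction 0.52 ± 0.10, unadjusted p = 9.65e-05).

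Phf11c, of the PHD finger family, behaved in another way. It lay at -0.15, 0.07, -0.11 and 0.00 in wildtype non-ligated and at 0.08, -0.10, 0.06 and 0.10 in wildtype ligated arrays, with no pass for ligation. In Has3-deficient arrays it lay at -0.46, -0.41, -0.51 and -0.43 without and at 0.03, 0.36 and 0.27 with ligation, a rise of 0.67 ± 0.08. The interaction was 0.59 ± 0.11 (unadjusted p = 0.000114).

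Gid4, the substrate receptor of a ubiquitin ligase, lay at 0.48, 0.35, 0.55 and 0.37 in wildtype and at 0.22, 0.00, 0.10 and 0.21 in Has3-deficient non-ligated arrays. The ligated values were -0.64, -0.57, -0.87 and -0.44 in wildtype and -0.34, -0.40 and -0.29 in Has3-deficient arrays. It fell by 1.07 and by 0.48 (interaction 0.59 ± 0.12), with no overlap between genotypes in either state. Triqk, a small protein of the endoplasmic reticulum, lay at 0.42, 0.49, 0.60 and 0.52 and then at -0.32, -0.58, -0.18 and -0.34 in wildtype, and at 0.01, 0.16, 0.00 and 0.18 and then at -0.18, -0.32 and -0.08 in Has3-deficient arrays. It fell by 0.86 and by 0.28 (0.58 ± 0.12), and its genotypes stood apart only before ligation.

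Of the other positive genes, 3 passed for genotype in non-ligated arteries. Slc25a24, a mitochondrial nucleotide carrier (interaction 0.35 ± 0.08), Enpp3, a cell surface nucleotidase (0.64 ± 0.14), and Mospd2, a membrane protein of the endoplasmic reticulum (0.50 ± 0.11), were lower in Has3-deficient non-ligated arteries. Those differences were -0.39, -0.61 and -0.44, with adjusted p-values of 0.0339, 0.0476 and 0.0476 in limma. In ligated arteries the same genes differed by -0.04, 0.03 and 0.07, and none passed. Capn6, a calpain without protease activity (0.71 ± 0.16), and Suclg2, a subunit of a citric acid cycle ligase (0.50 ± 0.11), complete the 10. Has3-deficient minus wildtype was -0.39 and 0.32 for Capn6 and -0.35 and 0.14 for Suclg2, without and with ligation.

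Of the 10 negative genes, Rap2a and Apoe had the clearest responses to ligation. Rap2a, a small GTPase of the Ras family, lay at -0.53, -0.20, -0.51 and -0.18 in wildtype and at -0.16, 0.09, 0.10 and -0.07 in Has3-deficient non-ligated arrays. After ligation it lay at 0.21, 0.44, 0.35 and 0.44 in wildtype and at -0.03, 0.00 and 0.03 in Has3-deficient arrays. It rose by 0.72 ± 0.09 in wildtype and had a change of 0.01 ± 0.10 in Has3-deficient arteries, with no overlap between genotypes in either state. The interaction was -0.70 ± 0.14 (95% interval -0.996 to -0.412, unadjusted p = 0.000148).

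Apoe, the apolipoprotein that macrophages and smooth muscle cells secrete, lay at -0.43, -0.20, -0.51 and -0.55 in wildtype and at -0.10, -0.15, 0.00 and -0.04 in Has3-deficient non-ligated arrays. In ligated arteries it stood at 0.93, 0.76, 0.79 and 0.83 in wildtype and at 0.69, 0.80 and 0.62 in Has3-deficient arrays. It rose by 1.25 ± 0.08 (2.38-fold) and 0.78 ± 0.08 (1.72-fold). The non-ligated groups did not overlap and the ligated ones did. The interaction was -0.47 ± 0.11 (unadjusted p = 0.000881), between -0.543 and -0.426 over left-out arrays.

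Several of the other negative genes are known mainly from liver, kidney or gut, and their differences were small. Epo, erythropoietin, lay at -0.04, -0.09, -0.07 and -0.05 and then at 0.00, 0.05, 0.10 and 0.05 in wildtype, and at 0.07, 0.16, 0.14 and 0.13 and then at -0.07, 0.00 and -0.07 in Has3-deficient non-ligated and ligated arrays (interaction -0.29 ± 0.06). Cyp2a12, a steroid hydroxylase of the liver, lay at -0.13, -0.10, -0.11 and 0.02, then at 0.05, 0.00, 0.04 and 0.02 in wildtype, and at -0.02, 0.13, 0.16 and 0.06, then at -0.15, -0.12 and -0.14 in Has3-deficient arrays (-0.33 ± 0.07). Fads6, of the fatty acid desaturase family, lay at 0.02, -0.07, -0.09 and -0.29, then at 0.00, 0.05, 0.14 and -0.01 in wildtype, and at 0.06, 0.06, 0.22 and 0.26, then at -0.33, -0.07 and -0.19 in Has3-deficient arrays (-0.50 ± 0.12). These spans are small, and whether the probe sets were above background is not known. F9, a coagulation factor (-0.32 ± 0.08), Glp2r, a gut hormone receptor (-0.32 ± 0.08), Tmprss5, a membrane protease (-0.37 ± 0.09), Rps19, a ribosomal protein (-0.37 ± 0.09), and Psmc5, a proteasome subunit (-0.40 ± 0.10), complete the 10. The 3 probe sets of Rps19 stood at -0.49, -0.49 and -0.15.

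**Figure D5:**
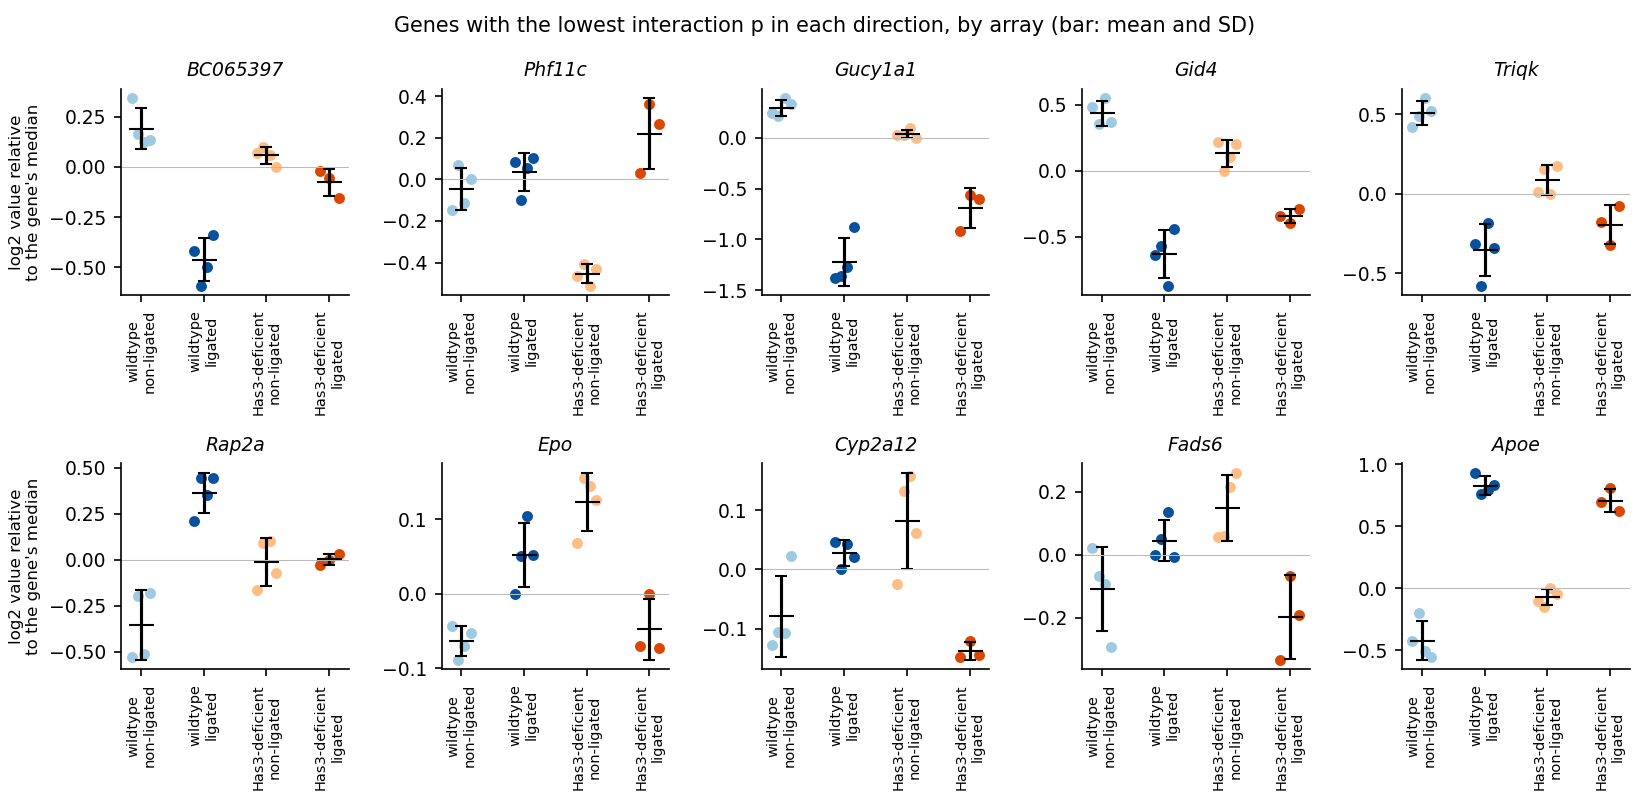
Log2 values relative to each gene's median over the arrays (y axis), by group, for the 5 genes with the lowest interaction p in each direction; points are the 15 arrays and bars the group mean and SD. Gucy1a1 falls from 0.21 to 0.39 to between -1.38 and -0.87 in wildtype arrays, and less in Has3-deficient ones; Rap2a lies apart between genotypes in both artery states.

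Genes of non-coding RNA and predicted genes were left out of the named genes by rule, and 12 of the 50 genes with the lowest p were of this kind. The lowest p of all belonged to 2310015D24Rik (interaction 1.16 ± 0.19, unadjusted p = 3.62e-05, adjusted p = 0.44). Among them were the microRNA genes Mir211 (-0.42 ± 0.09), Mir301 (0.62 ± 0.14) and Mir423 (-0.45 ± 0.11), all with an adjusted p of 0.44. MicroRNAs are short RNAs that pair with messenger RNAs through their seed, bases 2 to 8. The mature arms of the 3 genes are shown, as given in RefSeq (GRCm38.p6), because these are the microRNA genes among the 50 lowest p-values; capitals mark the seed. Which RNA the probe sets bind, a precursor or a mature arm, is not given in the sources used here.
mmu-miR-211-5p: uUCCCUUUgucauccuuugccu
mmu-miR-211-3p: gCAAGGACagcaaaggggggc
mmu-miR-301a-5p: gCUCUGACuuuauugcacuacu
mmu-miR-301a-3p: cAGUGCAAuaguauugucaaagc
mmu-miR-423-5p: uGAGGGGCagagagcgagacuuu
mmu-miR-423-3p: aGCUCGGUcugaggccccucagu

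The 6 arms have 6 different seeds, so none are grouped. Mir211 lies at chr7:64205831-64205888 from arm to arm, Mir301 at chr11:87113017-87113076 and Mir423 at chr11:77078086-77078144. Mir301 lay at 0.36, 0.58, 0.19 and 0.65 and then at -0.26, -0.28, -0.08 and -0.22 in wildtype, and at -0.16, 0.05, 0.00 and 0.00 and then at -0.19, -0.08 and 0.10 in Has3-deficient arrays. The wildtype non-ligated arrays were the high ones. Mir423 lay at -0.11 to 0.06 and 0.16 to 0.28 in wildtype and Has3-deficient non-ligated arrays, without overlap, and Mir211 lay at 0.09 to 0.32 and -0.15 to -0.02 in the ligated ones, also without overlap.

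Of 17 growth factor and receptor genes, 4 fell with ligation in wildtype and 3 in Has3-deficient arteries, beside 14.6% and 8.08% of all genes. Pdgfd, a ligand of the platelet-derived growth factor receptors made by smooth muscle and endothelium, fell by 1.47 and by 0.85 (interaction 0.62 ± 0.20). Pdgfb, a ligand of the same receptors, rose by 1.27 and 0.83 (-0.45 ± 0.25), and the receptor gene Pdgfra had an interaction of 0.29 ± 0.13. Over the list 10 of 17 genes were positive (45.8% of all genes), with a median of 0.07. The TGF-beta and BMP list had 13 of 22 positive, beside the same 45.8%, and a median of 0.10, with Tgfb3, a ligand, at 0.44 ± 0.20.

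Of 23 genes of mitosis, 22 rose in each, beside 13.2% and 10.2% of all genes. The interaction was negative for 16 (54.2% of all genes), with a median of -0.13, and 2 of these had an unadjusted p under 0.05 (3.75% of all genes). They were the kinase gene Aurka (1.17 and 0.81, interaction -0.37 ± 0.15) and Ube2c, of the anaphase ubiquitin machinery (1.42 and 0.98, -0.44 ± 0.19). The median was -0.013 without Has3-deficient ligated array 5 and -0.209 without wildtype ligated array 4. In DNA replication 11 of 23 were positive (45.8% of all genes) with a median of -0.03. Chaf1a, a histone chaperone, stood at -0.30 ± 0.08 and Dbf4, the activator of a replication kinase, at -0.38 ± 0.13. Prim1, primase, stood at 0.44 ± 0.19 and Cdc6, an origin licensing factor, at 0.27 ± 0.11.

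Medians of other lists were 0.10 for matrix proteases and inhibitors (13 of 21 positive), 0.06 for integrins and focal adhesion (13 of 20), 0.05 for platelet and coagulation genes (11 of 19) and 0.01 for endothelial genes (11 of 19). The positive share of all genes was 45.8%. The protease cathepsin K, Ctsk, rose by 1.39 and 1.82 (interaction 0.43 ± 0.19), and the integrin Itga4, which leukocytes use to enter tissue, by 1.05 and 1.41 (0.36 ± 0.11). The endothelial receptor Tek fell by 1.45 and by 0.86 (0.59 ± 0.25) and the thrombin receptor Thbd, thrombomodulin, by 0.98 and by 0.60 (0.39 ± 0.13). F3, tissue factor, fell by 1.02 and by 0.61 (0.40 ± 0.18). Plat, tissue plasminogen activator (0.32 ± 0.12), and Procr, the protein C receptor (0.33 ± 0.14), were also positive. These genes carry unadjusted p-values under 0.05 and did not pass.

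Leukocyte lists had medians of -0.06 for chemokines, cytokines and adhesion (9 of 28 positive), -0.08 for neutrophils (5 of 17), -0.14 for T and NK cells (5 of 14), -0.01 for B and plasma cells (5 of 10) and 0.08 for mast cells (7 of 9). Over all genes 45.8% were positive. In the T and NK list 3 genes had a negative interaction with an unadjusted p under 0.05: Zap70, a T cell receptor kinase (-0.37 ± 0.15), Ncr1, an NK cell receptor (-0.34 ± 0.15), and Gzmb, granzyme B (-0.22 ± 0.10). In the neutrophil list the antimicrobial peptide gene Camp stood at -0.18 ± 0.08. The monocyte chemokine Ccl8 rose by 1.87 and 2.42 (0.55 ± 0.25), and Csf3, a granulocyte growth factor, had an interaction of -0.34 ± 0.13.

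The lists of respiratory chain (median 0.13), lymphatic endothelial (0.10), immediate early (0.04), unfolded protein response (0.03), interferon response (0.03), cholesterol (-0.01), hypoxia and glycolysis (-0.03) and circadian clock genes (-0.16) held at most 1 gene each with an unadjusted p under 0.05. That gene was Sel1l, of the degradation machinery of the endoplasmic reticulum (0.27 ± 0.09). The interferon list mean was 1.307 in wildtype ligated array 3, against 0.417 to 0.491 in the others of that group.

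Genes of fat and of neurons, from tissues around the artery, varied widely between arrays of 1 group. Fits with the means of these lists as covariates, and without the arrays high in them, are given below. Whether this variation caused any of the results was not tested. Of 15 fat genes, 14 had a positive interaction (45.8% of all genes), with a median of 0.76 and 0 with an unadjusted p under 0.05. The list mean ran from -0.283 to 1.781 in wildtype and from -0.456 to 1.713 in Has3-deficient non-ligated arrays, and from -1.295 to 0.049 and from -0.392 to 0.366 in the ligated ones. Ucp1, the uncoupling protein of brown fat, had the largest estimate of all named genes, 2.71 ± 2.30. After Retnla (above), the fat gene Cox8b (1.43 ± 1.11), the lipid synthesis gene Thrsp (1.39 ± 0.72) and the fat gene Cidea (1.38 ± 1.22) followed; with the covariates described below, the signs of Cox8b and Cidea turned.

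Of 15 neuron and chromaffin genes, 0 were positive (45.8% of all genes), and the median was -1.10, again with 0 under an unadjusted p of 0.05. The list mean ran from -0.266 to 2.26 in wildtype and from -0.172 to 4.029 in Has3-deficient non-ligated arrays, and from -0.204 to 0.098 and from -0.224 to 0.339 in the ligated ones. Chga, chromogranin A (-1.82 ± 0.88), the neuropeptide gene Npy (-1.49 ± 1.15), the synaptic gene Snap25 (-1.47 ± 1.83), the catecholamine enzyme gene Th (-1.46 ± 1.57) and Ptprn (-1.41 ± 1.13), of secretory granules, had the lowest named estimates. Medians of the other marker lists were -0.22 for Schwann cells (1 of 8 positive), -0.16 for epithelium (2 of 10), -0.08 for thyroid and parathyroid (2 of 6) and -0.03 for skeletal muscle (7 of 19). Cdh1, the epithelial cadherin (-0.29 ± 0.11), and Pvalb, a calcium buffer of fast muscle (0.43 ± 0.18), had an unadjusted p under 0.05. The 2 Cdh1 probe sets differed, at -0.49 and -0.09. Levels are lost in the table, so which of these markers were at 0 cannot be read.

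The results above were also computed with the neuron and fat list means as covariates. With both, the median interaction was 0.239 for the contractile list (22 of 26 positive), 0.273 for the adventitial list, 0.237 for the nitric oxide list and 0.324 for the 238 genes that fell. Gucy1a1 gave 0.726. Without the 5 non-ligated arrays whose mean was above 1 in either list the medians were 0.322, 0.309, 0.26 and 0.34, and Gucy1a1 gave 0.863. That fit leaves 1 Has3-deficient non-ligated array, which is assumed to vary like the other groups. It keeps every ligated array, so the spread of fat genes among those is not removed. Their fat list means ran from -1.295 to 0.049 in wildtype and from -0.392 to 0.366 in Has3-deficient arteries.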

How the data were processed

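Carotid artery RNA of 15 mouse samples in 4 groups was measured on Affymetrix arrays. The deposited table holds log2-scale values of 33793 probe sets, each relative to its own median over the arrays, as the values show. No source used here names the software, normalization or log base the authors used, so log2 is inferred from the values and fold changes rest on it. Gene symbols came from the platform annotation: 23521 probe sets carry 1 symbol, 1814 several and 8458 none. Probe sets with 1 symbol were averaged per gene, giving 22180 genes, of which 1082 have several probe sets. Array medians lay between -0.0014 and 0.0167, and the number of arrays limits the precision.

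Groups were read from the sample titles. A linear model with 1 mean per group was fitted to all genes and arrays in limma 3.58.1 (R 4.3.3), with empirical Bayes variances (11 residual and 2.69 prior degrees of freedom) and Benjamini-Hochberg adjustment over all genes for each contrast. The code was tested on simulated data. A total of 33 lists with at least 5 measured genes were described by counts and medians, and 1 shorter list (erythroid) was left out.

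Genes were named by rule: Has1, Has2 and Has3, the 10 lowest interaction p-values and the 5 largest estimates in each direction, the 8 largest mean responses to ligation each way, and in each list the 2 lowest p-values and all members with an unadjusted p under 0.05. Predicted genes, microRNA and snoRNA genes, olfactory and vomeronasal receptors and immune receptor segments were left out of all but the lists. Some further list members are given that were chosen after their values were seen. The comparison, the lists and the rule were chosen with earlier results of these data known. Alternatives were quantile normalization, a common array median, more variable genes alone, array weights, a robust prior, the most variable probe set per gene, replicate blocks and leaving out each array. The covariates and the exclusion of 5 arrays were added after seeing the data.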

Additional observations from a re-analysis of the deposited data

Results flagged for a closer look

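In 40 of 489 groups of 4 arrays, taken over the named genes and the list means, 1 array stood apart from the other 3 by Dixon's criterion, which chance meets in about 1 in 20 groups. Values are log2 relative to the gene's or list's median.

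Wildtype non-ligated array 2 was high for the neuron and chromaffin list (2.26) and its genes Snap25 (4.429), Th (3.895), Chgb (1.865), Chga (0.974) and Ptprn (0.122). It was also high for the adventitial list (0.235) and Dpt (0.413). Wildtype non-ligated array 1 was high for the respiratory chain list (0.871), Ndufs4 (0.8), BC065397 (0.341) and Acod1 (-0.922), and low for Marco (-0.32) and Adm (0.0). Array 3 of that group was high for the B and plasma cell list (0.134), and array 4 was high for Cyp2a12 (0.023) and low for F9 (-0.161).

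Wildtype ligated array 4 was high for the contractile list (-0.319) and Myl9 (-0.399). Array 3 of that group was high for the interferon list (1.307), Usp18 (1.42) and the neuron list (0.098), and low for Cdc6 (0.047) and Bhlhe40 (-0.043). Array 2 was high for Pdgfd (-0.623) and Pi16 (-0.21) and low for the B and plasma cell list (0.051). Array 1 was high for Capn6 (0.208) and low for Gfpt2 (-0.358), Smad4 (-0.13) and Gzmb (0.0).

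Has3-deficient non-ligated array 4 was high for the skeletal muscle list (0.621), Omd (0.26) and Egr2 (0.0). Array 3 was high for Dio1 (0.13) and low for Sel1l (-0.282), and array 2 was low for Reln (-0.248). Array 1 was high for F9 (0.04) and low for Psmc5 (0.077) and Aurka (-0.445). The Has3-deficient ligated group has 3 arrays and was not examined this way.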

How the results depend on the processing

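No gene passed for the interaction under any of 25 alternatives in limma, whose lowest adjusted p ran from 0.0693 to 0.979, nor with probe sets taken singly (0.41). The count with an unadjusted p under 0.05, 1802 against 1109 expected if no gene differed, was 1289 to 2255 over left-out arrays, with 685 to 1226 positive. It was 912 (615 positive) among more variable genes, 883 (472 positive), below the expected 1109, with a fixed replicate block and 2741 without the 5 arrays high in neuron or fat genes. The expected 1109 holds for all 22180 genes. The more variable genes are only a part of these, so their 912 cannot be set against it. Whether replicate numbers pair the samples is not given in the labels and was not settled. After removal of group means, same-numbered wildtype arrays correlated at 0.028 to 0.164 and differently numbered ones at -0.208 to 0.121. The 1 same-numbered Has3-deficient pair gave -0.058, and the differently numbered ones -0.179 to 0.175. The fixed replicate block gave list medians of 0.22 (adventitial), 0.107 (hyaluronan) and -0.035 (matrix), and turned the signs of Abca8a (-0.078), Inmt (0.286), Abca8b (-0.261), Bhlhe40 (0.055), Clock (-0.106), Adm (-0.132) and Junb (0.141). Quantile normalization gave medians of 0.121 (nitric oxide) and 0.235 (genes that fell), and turned Abca8a (-0.27) and Abca8b (-0.218). The covariates turned Cox8b (-0.045), Cidea (-0.129), Stfa2l1 (-0.106), Inmt (0.082) and Uqcrc2 (-0.046). Other signs turned without the 5 non-ligated arrays high in neuron or fat genes. These were Snap25 (0.574), Th (0.401), Ptprn (0.406), Il1b (0.934), Saa3 (0.019), Clec4d (0.003), Acod1 (0.155), Cxcl3 (0.007), Abca8a (-0.021), Reln (0.063) and Chgb (0.156). Array weights turned Il1b (0.204). Left-out arrays turned Il1b (-0.721 to 0.44), Stfa2l1 (-0.291 to 0.485) and Inmt (-0.397 to 0.185). The cause was not tested. Of 130 named genes, 109 kept their sign under every alternative run. With 3 or 4 arrays a group and levels lost, small differences and signal over background cannot be read.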
